A study of Cervus nippon with 40 samples.

Results

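The spleen of Sika Deer (Cervus nippon) was represented by 4 small RNA libraries, 1 for each development stage, out of 40 libraries from 10 organs. The libraries were chosen by their organ label and were set against the mean of the other 9 organs (adrenal, antler, brain, heart, kidney, liver, lung, skeletal muscle and testes), which gave 36 libraries. The deer were males of the Shuangyang breed, with an age of 1 year at the juvenile, 3 at the adolescence, 5 at the adult and 10 at the aged stage. RNA of the 3 deer of a stage was pooled into a library, and the organs of a stage came from the same deer. A replicate of spleen was therefore a library of another stage, and the spread between deer of 1 stage was not measured. No treatment was given to any group. The comparison with other organs was made with all 4 spleen libraries and again with the 3 younger ones, because the aged spleen departed from the other spleens. That choice rests on the values themselves, and the p-values with 3 spleens take no account of it.

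MiRNAs are short RNAs that guide Argonaute proteins to matching messenger RNAs and lower their translation or stability. The spleen filters the blood in its red pulp, where old red blood cells are removed, and holds lymphocytes in the follicles and sheaths of its white pulp. Its capsule and trabeculae contain smooth muscle, which is well developed in ruminants, and its blood vessels are lined by endothelium. Known miRNAs of these cells are miR-145 and miR-143 in smooth muscle, miR-150 in mature lymphocytes, miR-142 in all blood cell lineages, miR-451 and miR-486 in red blood cells and miR-126 in endothelium.

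The juvenile, adolescence and adult spleens held 850143, 890458 and 905888 miRNA reads, and the aged spleen held 417621. Values are in RPM, the reads of a miRNA in proportion to all miRNA reads of its library, and 1 read stood for 1.18, 1.12, 1.10 and 2.39 RPM in the same order. A count of 0 allows up to 3 reads, which is 3.53, 3.37, 3.31 and 7.18 RPM. These limits cover the counting of reads only. MiRNAs with the prefix bta- carry the names of cattle miRNAs in miRBase, and 212 of the 305 such names listed outside antler had a read in spleen, 116 of them in all 4 spleen libraries. The 10 names of highest mean level held 85.3%, 84.6%, 89.0% and 86.8% of the miRNA reads of the 4 libraries. They were let-7b, miR-3596, miR-145, miR-26a, miR-26c, miR-378, miR-199a-3p, miR-3604, miR-30c and miR-1. The counts of let-7b and miR-3596 were equal in all libraries, and those of miR-26a and miR-26c, as well as miR-199a-3p and miR-3604, were nearly so. Such a pair was 1 set of reads listed under 2 names, and the totals count its reads under both.

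The library of the aged spleen stood apart from the other 3. Over the log2 values of 124 miRNAs, the juvenile, adolescence and adult spleens resembled each other with Pearson's r between 0.979 and 0.987. The aged spleen had r = 0.950 with the adolescence lung, which was nearest to it, and r = 0.911 with the adolescence spleen, the nearest spleen. These r values are across miRNAs, which are not independent replicates. After organ and stage were fitted, the residual SD (log2) was 1.58 in the aged spleen, against 0.732, 0.669 and 0.620 in the juvenile, adolescence and adult spleens. Of 102 miRNAs with at least 10 reads in a spleen library, 21 were more than 2-fold above and 28 more than 2-fold below all 3 younger spleens in the aged spleen. The adult spleen had 0 and 17 such miRNAs against its remaining 3, the juvenile 5 and 1, and the adolescence 2 and 0.

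The smooth muscle miRNA miR-145 was higher in each spleen library than in any of the 36 libraries of other organs. Its level was 126647 RPM in the juvenile, 189707 in the adolescence, 198873 in the adult and 136607 in the aged spleen. The 36 other libraries ran from 638 RPM to 105877, with a median of 25941, and the highest was the adult testes. All 4 spleens lay above this range, the aged spleen included. The spleen mean was 162959 ± 36598 RPM (SD, n = 4), which was 2.33 times the mean of testes, the next organ. In the limma model of organ and stage, the log2 difference of spleen from the mean of the other 9 organs was 2.37 (SE 0.30, adjusted p = 2.67e-07), and with the 3 younger spleens it was 2.53 (SE 0.29, adjusted p = 6.34e-08). In whole organs a higher level can come from more cells of a type or from more of the miRNA per cell, and these cannot be told apart.

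The lymphocyte miRNA miR-150, which represses the transcription factor MYB in developing lymphocytes, was high in the 3 younger spleens only. Its level was 256 RPM in the juvenile, 325 in the adolescence, 267 in the adult and 31.1 in the aged spleen, from 218, 289, 242 and 13 reads. The 36 other libraries ran from 0 to 130 RPM with a median of 13.8, and the highest was the aged kidney. The 3 younger spleens lay above all 36, whereas 14 of the 36 lay above the aged spleen. The log2 difference from the other 9 organs was 3.05 (SE 0.65, adjusted p = 0.00141 with limma) with 4 spleens and 4.18 (SE 0.68, adjusted p = 2.69e-05) with 3. Both markers of the spleen had their highest mean level in the libraries labelled as spleen, and miR-150 did not mark the aged library. They were chosen with earlier results of these data known, so their high level here is not independent evidence.

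**Figure D1:**
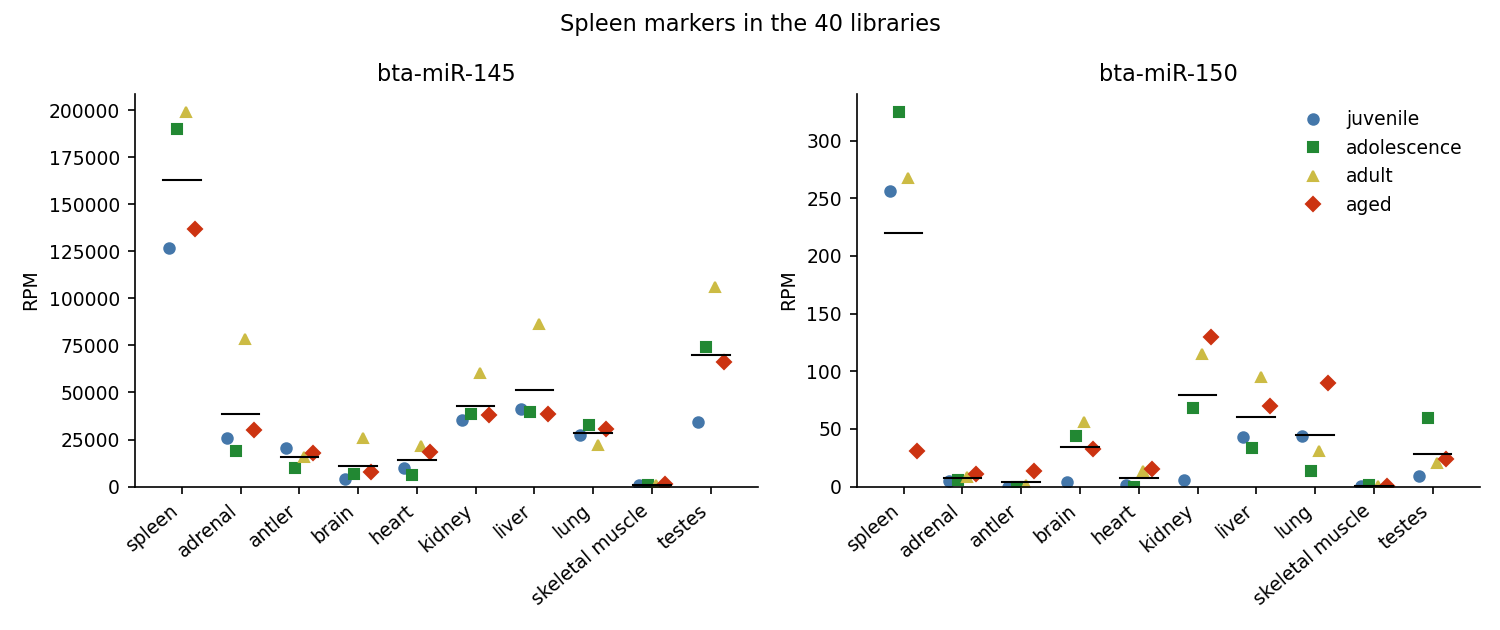
Level of miR-145 (left) and miR-150 (right) in RPM on linear axes from 0, for each organ and stage; points are single libraries and bars are means of 4 libraries. All 4 spleens lie above 105877 RPM for miR-145, and for miR-150 the 3 younger spleens lie above 130 RPM while the aged spleen is at 31.1.

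With all 4 spleen libraries, 5 of 124 tested miRNAs (4.03%) passed an adjusted p below 0.01 and an absolute log2 difference above 1, 4 higher (3.23%) and 1 lower (0.806%) in spleen. Beside miR-145 and miR-150, the higher ones were miR-378 and miR-1388-5p, and the lower one was miR-196a. With the 3 younger spleens, 9 of 121 (7.44%) passed, 5 higher (4.13%) and 4 lower (3.31%). The higher ones were miR-145, miR-150, miR-378, miR-378c and let-7d, and the lower ones were miR-1, miR-7, miR-22-5p and miR-196a. The 2 comparisons share the 36 libraries of other organs and 3 of the spleens, and 4 miRNAs passed in both. Calls made with 3 spleens only follow the removal of a library for its departure. At an unadjusted p below 0.05 there were 37 and 47 miRNAs. Highest of the 10 organs at each of the 4 stages was miR-145 alone among 124 (0.806%), and at each of the 3 younger stages miR-145, miR-150 and miR-342 were highest, 3 of 121 (2.48%). These ranks are on the TMM scale, and in RPM the adolescence testes (863) lay above the adolescence spleen (670) for miR-342. Single libraries and the scaling moved these counts. Leaving out the juvenile, the adolescence or the adult spleen left 2, 3 and 1 calls with the 4-library comparison, miR-145 among them each time. The calls of miR-150 and miR-378 were lost when any of these 3 was left out, that of miR-196a without the juvenile or the adult spleen, and that of miR-1388-5p without the adult spleen. With the 3 younger spleens, miR-145, miR-150, miR-378 and miR-7 kept the call when any of these was left out, and let-7d and miR-196a lost it each time. Leaving out the adolescence brain, the library farthest from the model (residual SD 1.90), raised the 9 calls of the 3 younger spleens to 28, all 9 among them. TMM, which holds most miRNAs level, gave a median log2 difference over all tested miRNAs of -0.22 with 4 spleens and -0.09 with 3, and scaling to total miRNA reads gave 0.46 and 0.54. Under total reads, the calls were 12 higher and 1 lower with 4 spleens and 19 higher and 2 lower with 3. With the size factors of DESeq2 they were 4 higher and 3 lower, and 4 higher and 10 lower.

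MiR-378, which lies in an intron of PPARGC1B and is known from oxidative tissues, had 110223, 87628, 51364 and 29539 RPM from the juvenile to the aged spleen. In RPM the heart had the higher mean (134420), and the median of the 36 other libraries was 16722. The RPM mean of spleen was 69688 and that of skeletal muscle 29543. On the TMM scale used for the log2 differences, spleen ranked 3 of the 10 organs, with a mean log2 level of 15.20 against 19.33 in skeletal muscle, the highest. The muscle level on this scale rests on the scaling. TMM factors were 0.0287 to 0.0737 in skeletal muscle and 1.42 to 2.11 in spleen, and a small factor raises all levels of a library. It differed from the mean of the other organs by a log2 of 1.36 (SE 0.29, adjusted p = 0.00141 with limma) with 4 spleens and 1.74 (SE 0.27, adjusted p = 1.53e-05) with 3. Its relative miR-378c had 5858, 4684, 1954 and 1307 RPM, and the log2 difference of 1.45 with 3 spleens (SE 0.29, adjusted p = 3.70e-04 with limma) was 0.998 with 4 (adjusted p = 0.0249). These names belong to 1 family, and reads may have been divided between them in the matching. The call of miR-378c with 3 spleens was lost without the juvenile or the adolescence spleen and without the lung libraries.

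MiR-1388-5p had 329, 221, 99.4 and 807 RPM in the spleens, with a median of 25.5 in the other libraries. Testes had the higher mean (674 RPM, from 143 to 1396), so that spleen and testes were the 2 organs of high level. Its log2 difference from the other organs was 2.36 (SE 0.54, adjusted p = 0.00268 with limma) with 4 spleens, where the aged library was the highest of them. This call was lost without the adult or the aged spleen and with no stage term. With the 3 younger spleens it was 1.65 and was not called. The miRNA let-7d, a member of the large let-7 family, had 312, 549, 347 and 144 RPM. Its log2 difference was 1.16 (SE 0.28, adjusted p = 0.00379 with limma) with 3 spleens and 0.40 with 4, which was not called. The call with 3 held under 14 of 26 alternatives. It was lost without the adrenal, antler, lung or skeletal muscle libraries and without any 1 of the 3 spleens. It was also lost with DESeq2, with the size factors of DESeq2, with no stage term, with miR-1 left out and with names listed in antler alone added.

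Among the miRNAs that were lower, miR-196a lies in the HOX clusters and represses HOX genes. It had 0, 6, 1 and 1 reads in the 4 spleens, against means of 1112 RPM in kidney, 96.5 in testes and 63.1 in skeletal muscle. Liver, lung, brain, antler and heart had means between 0.64 and 2.89 RPM, so the low level was shared with these organs. The log2 difference was -2.60 (SE 0.55, adjusted p = 0.00141 with limma) with 4 spleens and -2.52 (SE 0.63, adjusted p = 0.00468) with 3, and the size of a difference that rests on so few reads depends on the 1 RPM added in the log. Both calls were lost with edgeR, without the kidney libraries and again without the skeletal muscle libraries. The call with 3 spleens, which held under 17 of 26 alternatives, was also lost on total reads, with no minimum of reads and with miR-1 left out. MiR-7, known from neuroendocrine cells, had 3285, 3961 and 996 RPM in the 3 younger spleens and 20109 in the aged one, where the other libraries had a median of 4943 and the adrenal a mean of 314222. Its log2 difference was -2.36 (SE 0.46, adjusted p = 3.63e-04 with limma) with 3 spleens and -1.34 (not called) with 4, and the call was lost without the adrenal libraries, on total reads and with no stage term. MiR-1, the main miRNA of striated muscle, had 5418, 7564 and 1782 RPM in the younger spleens and 52057 in the aged one. The median of the 36 other libraries was 5009 RPM, so that 2 of the 3 younger spleens lay above it, and the 3 ranked 5 of 10 organs on the TMM scale. Its log2 difference was -2.49 (SE 0.50, adjusted p = 3.70e-04 with limma) with 3 spleens and -1.36 (not called) with 4, and the call was lost without the heart libraries, without the skeletal muscle libraries, without the adult spleen and with no stage term. MiR-22-5p, the less abundant strand of the miR-22 hairpin in most tissues, had 81.2, 250, 136 and 790 RPM. The log2 difference was -1.75 (SE 0.31, adjusted p = 7.65e-05 with limma) with 3 spleens and -1.27 with 4 (adjusted p = 0.0249), and the call was lost without the juvenile spleen and on total reads. For miR-1, miR-7 and miR-22-5p alike, the aged spleen was the highest of the 4 spleens.

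**Figure D2:**
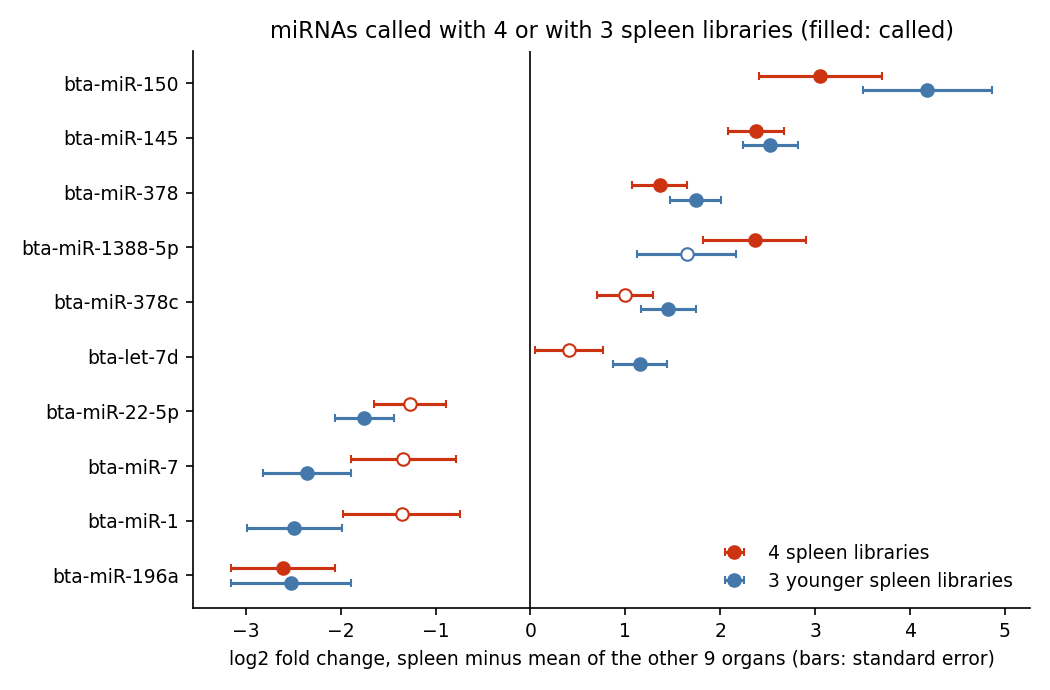
Log2 difference between spleen and the mean of the other 9 organs for the 10 miRNAs called with 4 or with 3 spleen libraries; bars are standard errors and filled points passed the limits. MiR-145, miR-150, miR-378 and miR-196a are filled in both, and miR-1 and miR-7 lie farther below 0 without the aged spleen.

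MiR-143, the cluster partner of miR-145, also had its highest listed mean in spleen, at a far lower level. MiR-143 had 9.41, 33.7, 38.6 and 74.2 RPM in the spleens, from 8, 30, 35 and 31 reads. The 36 other libraries ran from 0 to 14.9 RPM (median 0.853), and 1 of them, the adolescence testes, lay above the lowest spleen. The adolescence, adult and aged testes libraries were shallow, with 67231, 97018 and 41866 reads, against 535668 in the juvenile testes. The adult and aged testes had no read, which allows up to 30.9 and 71.7 RPM, so that spleen and testes could not be ranked for miR-143. It did not reach 10 reads in 4 libraries and was tested only where no minimum of reads was set, and there limma called it with 4 and with 3 spleens, among 2.95% and 3.28% of all 305 names.

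Of 8 leucocyte miRNAs, 6 were listed in the 40 libraries and 5 had a read in spleen. MiR-155 and miR-223 were not listed in any library, and miR-181b had no read in spleen. The 3 that were tested, miR-150, miR-142-5p and miR-342, had a median log2 difference of 1.66 with 4 spleens, against -0.22 over all tested miRNAs, and limma called 1 of them, where it called 4.03% of all tested. EdgeR, which called 7.26% of all tested, and DESeq2, which called 12.1%, called all 3. With the 3 younger spleens the median was 1.36, against -0.09 over all, and limma, edgeR and DESeq2 each called miR-150 alone, where they called 7.44%, 10.7% and 22.3% of all tested. MiR-342, which is transcribed with the gene EVL and is abundant in lymphoid cells, had 628, 670, 275 and 1135 RPM. The 36 other libraries ran from 6.16 to 863 RPM with a median of 190, and 12 of them lay above the adult spleen. The log2 difference was 1.62 (SE 0.52) with an adjusted p of 0.0337 by limma, which did not pass. MiR-146a, an inhibitor of the signalling from Toll-like receptors to NF-kB, had 12.9, 24.7, 5.52 and 23.9 RPM in the spleens, from 11, 22, 5 and 10 reads. The highest listed value of the 36 other libraries was 5.13 RPM in the adult liver, and the median was 0. The 4 testes had no read, which allows up to 5.60, 44.6, 30.9 and 71.7 RPM from the juvenile to the aged stage, so that spleen and testes could not be ranked. Of the 36 libraries, 13 had at most 3 reads and a 3-read limit above the adult spleen, the lowest of the spleens. MiR-146a was below the minimum of reads, and with no minimum limma called it with 4 and with 3 spleens. MiR-142-5p had 57.6, 104 and 6.62 RPM in the younger spleens, within the range of the other libraries (0 to 565), and 2849 in the aged spleen. The other arm, miR-142-3p, had 0, 4, 0 and 20 reads in the spleens.

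**Figure D3:**
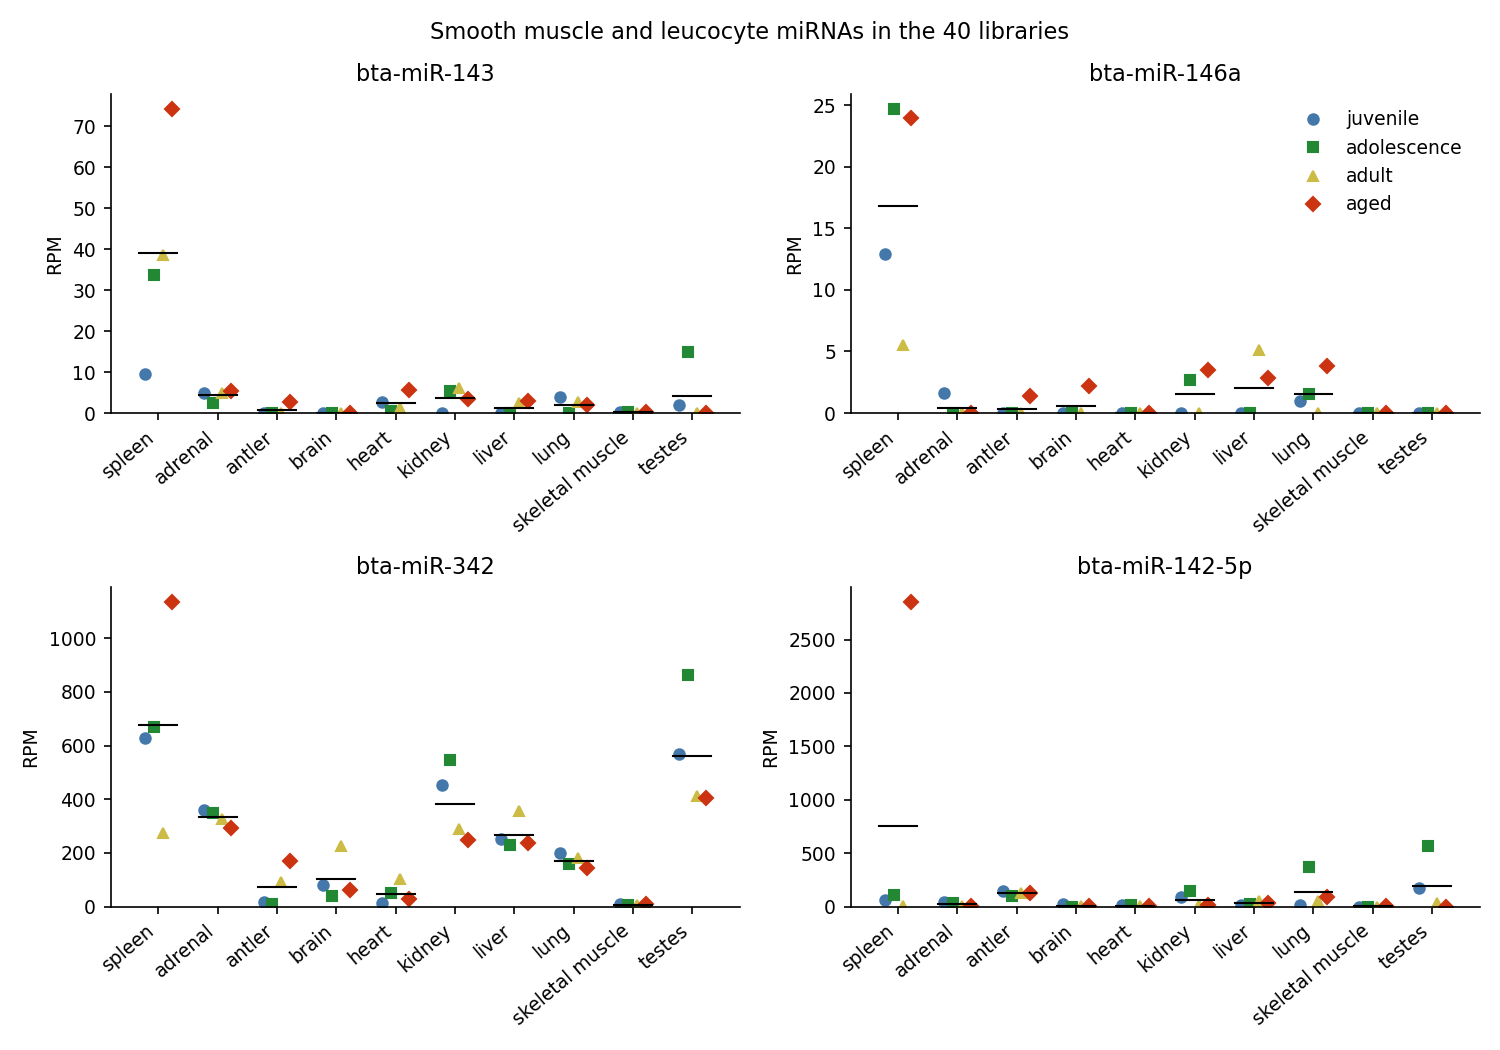
Levels of miR-143, miR-146a, miR-342 and miR-142-5p in RPM on linear axes from 0 (each with its own scale), for each organ and stage; points are libraries and bars are means of 4. Spleen has the highest listed mean in each panel. For miR-143 and miR-146a, spleen and testes could not be ranked, since the adolescence, adult and aged testes were shallow. For miR-142-5p and miR-342 the highest mean rests on the aged spleen, at 2849 and 1135 RPM. The 3 younger spleens averaged 524 RPM of miR-342 and the 4 testes 562.

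The red blood cell miRNAs did not set the spleen apart from all other organs. MiR-486, which lies in the ANK1 gene, had 5652, 5800, 2943 and 3937 RPM in the spleens, and heart (26374), liver (10034) and brain (8106) had higher means. All 4 spleens lay above the median of the other libraries (2629 RPM). Its log2 difference was -0.27 (SE 0.34, adjusted p = 0.640 with limma). MiR-451, the most abundant miRNA of red blood cells in other mammals, had 2 reads in spleen, both in the aged library, and miR-144 was not listed in any library. The endothelial miR-126-3p had 3 reads over the 4 spleens, and its log2 difference of -2.15 (SE 0.63) had an adjusted p of 0.0249 by limma, which did not pass, whereas edgeR and DESeq2 called it with 4 and with 3 spleens. On the TMM scale, spleen had the lowest listed mean log2 level of the 10 organs for this miRNA. It was scarce in the other libraries too, with a median of 6.66 RPM and a highest value of 73.6. The liver miRNA miR-122 was not listed in any library, those of liver included. Whether such low counts reflect the tissue or the detection of these miRNAs in the whole series was not tested.

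MiR-199a-3p, known from fibroblasts, had 30845, 37271, 12538 and 23758 RPM in the spleens, against a mean of 253112 in antler and a median of 33632 over the other libraries. The 4 tested members of the miR-199 and miR-214 group had a median log2 difference of -0.29 with 4 spleens, and limma, edgeR and DESeq2 called none (0 at an unadjusted p below 0.05), where limma called 4.03% of all tested. MiR-214 stood apart from the median, with a log2 difference of 0.91 with 4 spleens and 1.56 (SE 0.50, adjusted p = 0.0239 with limma) with 3. It was not called in either, but it was with array weights in both (29.0% and 40.5% of all tested called), and with 3 spleens also on total reads (17.4%), without the antler libraries (8.26%) and without the adolescence brain (23.3%). For the locus DLK1-DIO3, an imprinted region with a large miRNA cluster, 8 members were tested with 4 spleens and limma called none, with 2 at an unadjusted p below 0.05 (median log2 difference -0.26). One of them, miR-493, had 61.2, 29.2, 14.4 and 62.3 RPM and a log2 difference of 1.68 (SE 0.62, adjusted p = 0.0800 with limma), and it was called by edgeR (7.26% of all tested called), by DESeq2 (12.1%) and on total reads (10.5%). The summed level of the members of the locus was 6893, 2686, 2926 and 2026 RPM from the juvenile to the aged spleen, within the range of the other libraries (8.47 to 95778 RPM). Markers of other organs differed in level. The epithelial miR-200b and miR-429 had no read in spleen, and of the neural miRNAs only miR-124a was seen, with 4, 7, 6 and 1 reads. Over the other libraries the summed epithelial level had a median of 0 RPM and a highest value of 73.6. The summed neural level was 4.71, 7.86, 6.62 and 2.39 RPM in the spleens, against a median of 3.11 over the other libraries. Low levels of these 2 groups were thus not particular to spleen. The pancreatic miR-216a and miR-375 had no read, and miR-216b had 13, 13, 17 and 8. The liver and kidney miRNA miR-192 had 3771, 2418, 408 and 4842 RPM, against means of 162722 in kidney and 162672 in liver. Of the striated muscle miRNAs, miR-206, miR-208a, miR-208b and miR-499 had no read in spleen, whereas miR-1, miR-133a, miR-133b and miR-133c were present in all 4 libraries. The summed level of this group was 8893, 12725 and 7538 RPM in the younger spleens and 53982 in the aged spleen, all above the median of the other libraries (5785 RPM). The most abundant member was miR-1 in the juvenile, adolescence and aged spleens. In the adult spleen it was miR-133a, with 5650 RPM against 1782 for miR-1. The part of muscle RNA in the summed level was not tested.

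Among the most abundant groups, the let-7 and miR-26 families differed widely within spleen. The let-7 family held 50.5%, 42.6% and 60.5% of the miRNA reads in the younger spleens and 11.3% in the aged spleen. The miR-26 family held 3.68%, 5.34% and 2.39% in the younger spleens and 48.6% in the aged one. Reads listed under 2 names count under both in these shares. The same holds for the tested members below, where let-7b and miR-3596, and miR-26a and miR-26c, are such pairs. The miR-30 family, with 5.04%, 5.40%, 2.02% and 1.504%, had its lowest share in the aged spleen. Against the other 9 organs with 4 spleens, 7 let-7 members had a median log2 difference of 0.39, 2 miR-26 members -0.18 and 4 miR-30 members -0.68, and limma, edgeR and DESeq2 called none of the 13 (1 at an unadjusted p below 0.05), where limma called 4.03% of all tested. With the 3 younger spleens the medians were 1.15, -1.27 and -0.73, and limma called let-7d, where it called 7.44% of all tested. On total reads (17.4% of all tested called), and again without the adolescence brain (23.3%), let-7a-5p, let-7b, let-7c and let-7d were all called with 3 spleens. EdgeR, at 10.7% of all tested, called let-7a-5p and let-7d, whose log2 differences by limma were 1.09 and 1.16. DESeq2, at 22.3% of all tested, called miR-98 and miR-30a-5p, whose log2 differences by limma were -1.34 and -1.26. Of the miR-17-92 family, 2 members were tested, and limma, edgeR and DESeq2 called neither in either comparison (0 at an unadjusted p below 0.05), and its sum ran from 413 RPM in the adult to 1817 RPM in the aged spleen.

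**Figure D4:**
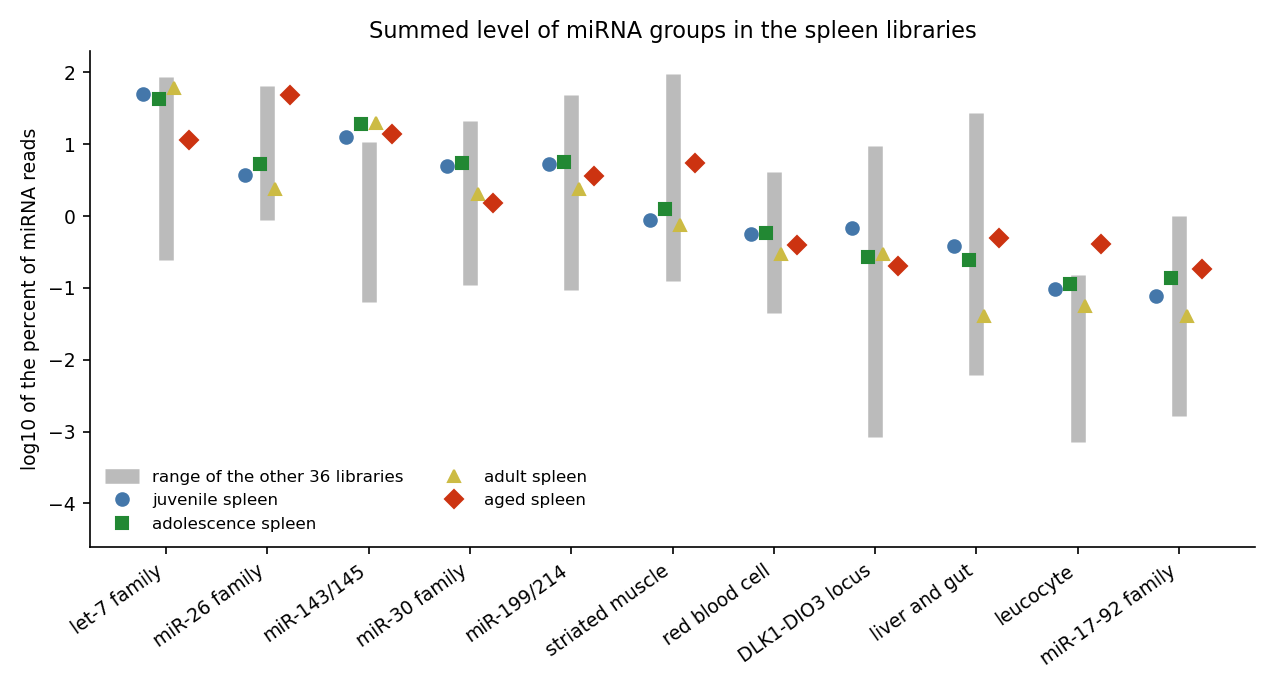
Summed share of miRNA reads (log10 of the percent) of 11 miRNA groups in the 4 spleen libraries, over the range of the 36 other libraries in grey. The group of miR-143 and miR-145 lies above the grey range in all 4 spleens, and the aged spleen is the lowest spleen for let-7 (11.3%) and the highest for miR-26 (48.6%).

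Lung was compared with spleen directly, since the juvenile lung was the library of another organ nearest to the younger spleens (r from 0.948 to 0.960). With 4 spleens, 7 of 124 miRNAs were called (5.65%), 4 of them higher (3.23%) and 3 lower (2.42%) in spleen, and 21 had an unadjusted p below 0.05. Higher were miR-378c, miR-378, miR-145 and miR-133a, and lower were miR-490, miR-1468 and miR-452. The 3 younger spleens gave 8 of 121 (6.61%), 5 higher (4.13%) and 3 lower (2.48%), with miR-133b added among the higher. Both share the 4 lungs and 3 of the spleens. The call of miR-133b held under 13 of 20 alternatives. It was lost without the juvenile or the adult spleen and without the juvenile or the adult lung. It was also lost with no stage term, with no minimum of reads and with names listed in antler alone added. On total miRNA reads the calls were 7 higher and 3 lower with 4 spleens, and 7 and 2 with 3. MiR-133a, known from striated muscle, had 3388, 5049, 5650 and 1839 RPM in the spleens and a mean of 357 RPM in lung, and the 4 lungs (253 to 655 RPM) lay below the 4 spleens, with a log2 difference of 2.73 (SE 0.65, adjusted p = 0.00323 with limma). MiR-490, which lies in the gene of a muscarinic receptor, had 27.1, 48.3, 48.6 and 57.5 RPM in the spleens and a mean of 331 in lung (203 to 592), with no overlap. The log2 difference was -3.47 (SE 0.57, adjusted p = 7.69e-05 with limma). MiR-1468 had 8.23, 7.86, 8.83 and 4.79 RPM in the spleens against a mean of 122 in lung (log2 difference -4.24, SE 0.74, adjusted p = 9.69e-05 with limma), and miR-452 had 1, 6, 2 and 1 reads against a mean of 26.8 RPM. The call of miR-133a with 4 spleens held under 14 of 21 alternatives. It was lost without the juvenile, the adolescence or the adult spleen, and without the adolescence or the adult lung. It was also lost with no stage term and with no minimum of reads. For miR-145 the log2 difference from lung was 1.77 (SE 0.40, adjusted p = 0.00188 with limma), and the call was lost without the adolescence spleen or the adult lung. For miR-150 it was 1.39 (SE 0.87) and not called with 4 spleens, although the 3 younger spleens (256 to 325 RPM) lay above the 4 lungs (13.8 to 90.2 RPM). With the 3 younger spleens it was 2.57 (SE 0.86, adjusted p = 0.0425 with limma), which was not called either. It was called in 3 of 20 alternatives.

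The aged spleen was then set against the level that the younger spleens and the aged libraries of other organs give. This library was set apart because it departs from the other spleens, so the values describe the departure and are no test of it. They rest on 1 library, with the spread taken from all organs. Of 124 miRNAs, 3 passed the limits used for the other comparisons (2.42%), all higher in the aged spleen, and nothing is read from this count. MiR-7 was at 20109 RPM, 7.32 times the mean of the younger spleens, with a log2 departure of 4.79 (SE 0.99). MiR-1 was at 52057 RPM, 10.6 times that mean (log2 5.25, SE 1.11). MiR-142-5p, with 2849 RPM from 1190 reads, was at 50.7 times that mean (log2 7.55, SE 1.82). For these miRNAs the aged spleen lay above all 3 younger spleens. Without the stage term, which pairs the organs of the same deer, none passed in limma (25 at an unadjusted p below 0.05), and edgeR on recovered reads gave 15 with it. MiR-142-5p passed in 8 of 16 alternatives. It did not without the juvenile or the adult spleen, on total reads, with TMM factors from all names, with no minimum of reads, with miR-1 left out or with the names of antler alone added.

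Other departures were of like size. MiR-26a was at 243240 RPM against 18402, 26696 and 11966 in the younger spleens (log2 5.09, SE 1.45). Among the 5 largest positive values by size were also miR-2285f with 120 RPM against 5.52 to 15.3, and miR-135b with 32 reads against 3, 2 and 0. On the negative side, let-7b was at 51561 RPM against 237559, 196868 and 288275, and miR-150 at 31.1 RPM was 9.08 times lower than the younger mean (log2 -3.89, SE 1.35). MiR-423-3p was at 28.7 RPM against 305, 296 and 231, and miR-2887 at 12.0 against 144.7, 80.9 and 121. MiR-328 had no read, against 31, 22 and 14 in the younger spleens, and was at least 3.56-fold lower than their mean when the aged library is set at its limit of 3 reads. MiR-484 also had no read, against 4, 11 and 3, and no fold can be given at this depth. The median log2 departure of all 124 was 0.33. With near-identical names merged it was -0.81, and 3 higher and 11 lower passed the limits, so that the balance of directions depended on this choice.

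**Figure D5:**
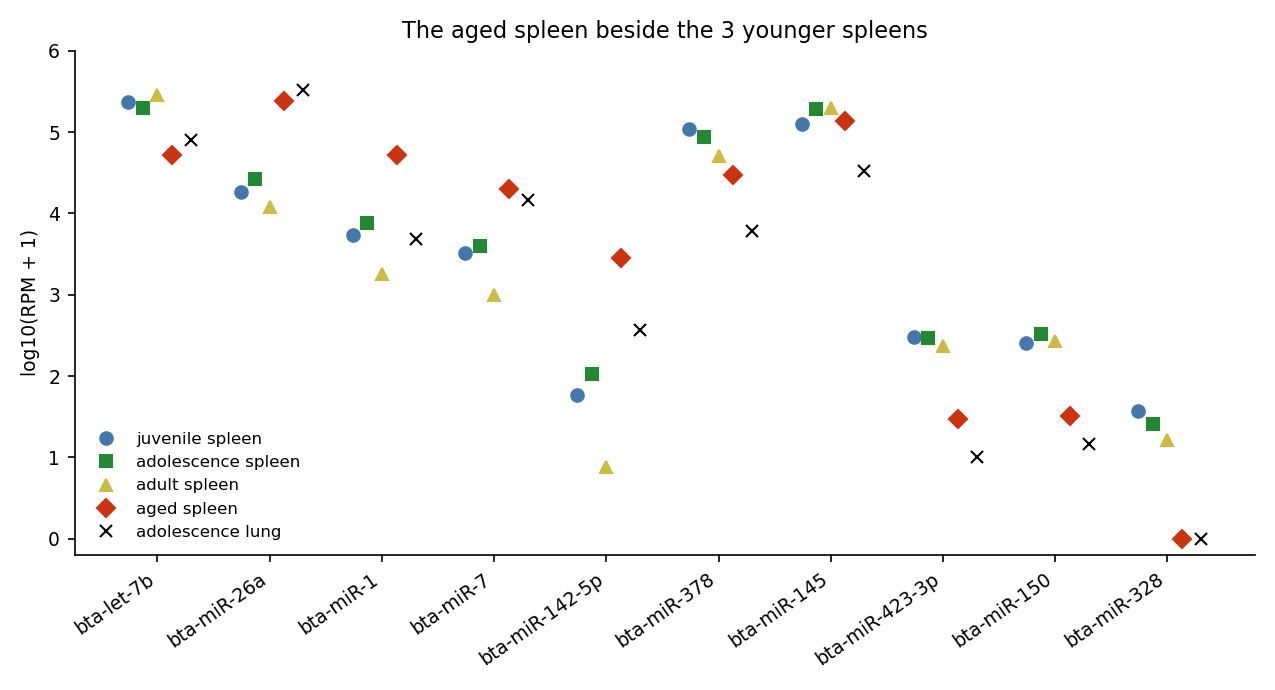
Level of 10 miRNAs as log10(RPM + 1) in the 4 spleens and in the adolescence lung (cross). The aged spleen lies above the younger spleens for miR-26a, miR-1, miR-7 and miR-142-5p and below them for let-7b, miR-378, miR-423-3p, miR-150 and miR-328, and it lies among them for miR-145.

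The adolescence lung, nearest to the aged spleen, differed from the other lungs in several of the same miRNAs. Its miR-26a was at 325107 RPM, against 48127, 100298 and 35235 in the juvenile, adult and aged lungs. Its let-7b was at 78892 RPM against 313743, 301078 and 346815, and its miR-7 at 14563 against 3951, 1793 and 1985. MiR-142-5p was at 369 RPM against 18.2, 49.5 and 91.2. MiR-423-3p was at 9.23 RPM against 261, 65.2 and 201.5, and miR-328 had no read. This lung was not shared with the aged spleen by stage, since the deer of the adolescence and aged groups were different animals. MiR-145 was at 32894 RPM in this lung, the highest of the 4 lungs, against 27400, 21866 and 30838 in the others, whereas the aged spleen lay within the range of the other spleens for it. The part of library quality, sequencing or tissue sampling in these departures was not tested. The aged spleen had 417621 reads, fewer than the other spleens, and the adolescence lung 650219, the fewest of the lungs.

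The study built a network of immune response in the spleen on 21 miRNAs. They were picked on these same libraries, so their direction is not independent evidence. All 21 had a read in spleen and 18 were tested. In the aged spleen 13 of the 18 had a positive log2 departure, where 71 of all 124 (57.3%) were positive, and their median was 3.43 against 0.33. The miRNAs past the limits there were miR-1, miR-7 and miR-142-5p, the same 3 that passed among all 124 (2.42%). Against the other 9 organs, limma called 1 of 18 (miR-150) with 4 spleens, beside 4.03% of all tested. With the younger spleens it called 3 of 16, beside 7.44%, where miR-150 was higher and miR-1 and miR-7 were lower. EdgeR (7.26% of all tested called) and DESeq2 (12.1%) each called miR-142-5p and miR-150 with 4 spleens. With the younger spleens edgeR (10.7%) called 3 and DESeq2 (22.3%) called 8. Several members rested on few reads. In the order of stages, miR-15a had 3, 4, 4 and 16 reads, and miR-148a had 1, 2, 2 and 14. MiR-214, a mesenchymal miRNA of the network, had 5503, 3512, 4593 and 1228 RPM.

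Names listed in spleen and in no other organ were rare. They were miR-2285af and miR-2285g, each with 1 read in the adult and 2 in the aged spleen, and miR-2387 with 1 read in the adolescence spleen. These counts do not exceed the 3 reads that a count of 0 allows, so that a difference from the other organs was not detectable at this depth. Of 133 miRNAs with at least 10 reads over the spleens, 14 had their highest listed mean RPM in spleen, and 5 of these had at least 2 times the mean of the next organ. They were miR-142-5p (3.91 times), miR-150 (2.76) and miR-145 (2.33), and, by listed values that count 0 reads as 0 RPM, miR-143 and miR-146a, for which testes could not be ranked. With the younger spleens 13 were highest and 4 passed the 2-fold limit, as miR-142-5p had 0.292 times the mean of testes.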

How the data were processed

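Small RNA was sequenced from 1 pooled library per organ and stage. According to the study, the authors removed adapters, short reads and other RNA classes, matched reads to miRBase and predicted further miRNAs with miRDeep. The submitters' processing notes name Bowtie, CASAVA and bcl2fastq 1.8.4. The deposited values are RPM, although the column is called tpm. RPM times the library total gave whole reads for 7982 of 7982 values (within 0.01). The 40 libraries held 41866 to 7759033 reads (median 744715).

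RPM was scaled by TMM (edgeR 4.0.16), taken as log2(RPM + 1) and fitted with limma 3.58.1 (R 4.3.3, trended variance) on organ and stage, for bta- names listed outside antler that reached 10 reads in 4 or more libraries. With all 40 libraries, TMM factors ran from 0.0287 in the adult skeletal muscle to 4.70 in the adolescence testes. Calls needed Benjamini-Hochberg adjusted p below 0.01 and an absolute log2 difference above 1. The p-values measure the spread between single pooled libraries. Stage pairs the organs, since the study took them from the same deer. Deviations of same-stage libraries had a mean r of 0.139, against -0.0446 for other stages, with 93 of 180 pairs above 0.1. Deviations were from the mean of an organ's own libraries, so a positive same-stage value by itself pushes the other-stage value below 0. For spleen with the other organs of its stage, the mean r was 0.116, -0.144, 0.251 and -0.251 from the juvenile to the aged stage. The alternatives were other scalings, filters, names, weights and left-out libraries, edgeR and DESeq2 1.42.0 on recovered reads. Scripts were tested on simulated data. Values and figures used Python 3.11.15.

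The members and lists were chosen with earlier results of these data known. Named miRNAs were the markers, those called with 4 or 3 spleens, the 10 most abundant, list members with at least 10 spleen reads, the 5 largest departures each way of the aged spleen at unadjusted p below 0.05, the called against lung, and names listed in spleen alone. MiRNAs with few reads that the text names as low or absent were added to show whole lists.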

Additional observations from a re-analysis of the deposited data

Results flagged for a closer look

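The depth of the aged spleen, 417621 reads, lay far below the closely grouped totals of the other 3 spleens. Among the named miRNAs, the levels below were those where 1 spleen lay far from the other 3 by Dixon's criterion, and in each it was the aged one. Chance meets the criterion in about 1 in 20 unselected groups. Several of these miRNAs were named for their departure in the aged spleen, and miR-26a and miR-26c are nearly the same reads, so their number is not set against chance. The aged value was low for let-7c (6156 RPM). It was high for miR-26a (243240 RPM), miR-26c (243230 RPM), miR-1 (52057 RPM), miR-7 (20109 RPM) and miR-142-5p (2849 RPM). It was also high at lower levels for miR-135a (122 RPM), miR-2285f (120 RPM), miR-152 (83.8 RPM), miR-135b (76.6 RPM), miR-142-3p (47.9 RPM), miR-215 (45.5 RPM), miR-15a (38.3 RPM) and miR-148a (33.5 RPM).

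The limma departures of the aged spleen from organ and stage that passed the limits were those of miR-142-5p (log2 7.55), miR-1 (log2 5.25) and miR-7 (log2 4.79). They rest on 1 library that was set apart for its departure, and are a description.

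Among miRNAs predicted in deer and deposited under a number only, number 206 averaged 169 RPM over the spleens, with 18.8, 13.5, 11.0 and 632 RPM from the juvenile to the aged spleen, and the highest of the 32 libraries outside antler and spleen had 10.3 RPM, which is 1 read in the adult testes. The adolescence and aged testes had no read, which allows up to 44.6 and 71.7 RPM, so the younger spleens could not be ranked against testes. Number 25 averaged 415 RPM, with 449, 458, 400 and 354 RPM, and the highest of those 32 had 312 RPM.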

How the results depend on the processing

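Over 889 alternative values of single named miRNAs, 788 kept direction and side of the threshold, 81 lost the call, 20 gained it and none changed sign. Counts of calls depended more on the settings, and the causes were not tested. With 4 spleens the 5 calls became 13 on total reads, 8 with 10 RPM in the log, 9 with no minimum of reads, 9 with edgeR and 15 with DESeq2. They became 11 without antler, 12 without brain, 10 without testes and 36 with array weights. Leaving out a spleen replicate gave 1 to 9. With the 3 younger spleens the 9 calls became 21 on total reads, 14 with DESeq2 size factors, 27 with DESeq2 and 24 without brain, and 5 to 7 without a spleen replicate. For the aged spleen the 3 miRNAs past the limits became 8 with DESeq2 size factors (7 higher, 1 lower), 6 with no minimum, 15 with edgeR, 30 with DESeq2, 14 with merged names (3 higher, 11 lower), 7 without miR-1 (1 higher, 6 lower), 1 with antler-only names added (let-7d, lower, with miR-1, miR-7 and miR-142-5p lost), and 2 to 3 without a spleen replicate. Against lung, DESeq2 gave 15 for 7 with 4 spleens (5 to 8 without a replicate). With 3 spleens the 8 became 13 with edgeR and 16 with DESeq2, and 4 to 9 without a replicate, 4 without the juvenile spleen.

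With no replicate block (the stage term left out), the aged spleen had 0 calls, and the other comparisons had 4, 6, 6 and 6, each within 1.5 times.

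Chosen after seeing the data were TMM factors from all names (9 calls with 4 spleens), leaving out the adolescence brain (28 with 3 spleens, 10 for the aged spleen) or also the adolescence lung (10, 28 and 14), and array weights with 3 spleens (49). The depth of the aged spleen limits values near 7.18 RPM, its limit for a count of 0.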
